A study of Mus musculus with 52 samples.

Results

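The genes described here are those that the combined treatment of subcutaneous pancreatic tumors with ADU-S100 and an agonistic antibody to LTbR lowered most consistently from tumor to tumor. They are Chmp4c, Thsd4, Lad1, Podxl, Tmbim1, Txnl4a, St6gal1, Gramd4, Prmt2 and Slc29a1, 10 of the 27525 genes in the table of normalized counts of the experiment labelled ST#23. They were chosen by the difference between combination and control tumors in that experiment, so this difference is given for them as a description and without a test. Ordered by the p-value of that difference among all genes with a lower mean in the combination group, 8 of them held ranks 2 to 9, Thsd4 held rank 15 and Lad1 rank 23. Rank 1 belonged to Arntl, a transcription factor of the circadian clock, with a log2 difference of -1.39, and ranks 10 and 11, just outside the leading genes, to Dnaja1 at -0.44 and Alcam at -0.96. The question asked of the 10 genes was whether they follow the epithelial content of the tumors, read from Epcam and Krt8, tumor by tumor.

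All tumors grew from 1 line of KPC cells, pancreatic carcinoma cells from mice with a Trp53 LSL.R172H/+ allele and the Pdx1-Cre transgene that switches it on in pancreatic cells, under the skin of male C57BL/6NHsd mice aged 8 to 10 weeks. ST#23 holds 32 tumors, 8 untreated (control), 8 given ADU-S100, a STING agonist, once into the tumor at 2 µg, 8 given the anti-LTbR antibody 4H8 at 100 µg in 4 intraperitoneal doses up to day 10, and 8 given both agents (combination), each tumor sequenced alone and collected on day 14. A second experiment, ST#15, holds 20 tumors in groups of 5 lettered A to D in the sample descriptions, where A is named as control, B as ADU-S100, C as antibody and D as combination. The treatment field of all 20 ST#15 samples reads combination, which contradicts the description of 15 of them, so these groups are called ST15_A to ST15_D and each result from them rests on the lettering. Because all tumors share 1 cell line, a tumor is a replicate of the treatment and not of the cancer. The labels used here name no mouse, so whether tumors of a group shared a mouse could not be examined.

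ST#23 libraries held 12762453 to 15591986 reads assigned to genes and detected 22202 to 23280 genes. In ST#15, 18 libraries held 16351965 to 18821792 reads and 21066 to 22730 genes, and 2 stood apart. Replicate 3 of ST15_D held 8716257 reads and 17066 genes, and replicate 3 of ST15_C held 16006599 reads and 20782 genes. Their log2 values correlated with the median library at r = 0.88 and r = 0.92, the lowest 2 of all 52 libraries. In the normalized counts 1 read was worth 3.78 in replicate 3 of ST15_D and 1.38 in replicate 3 of ST15_C. In the other 18 it was worth 0.779 to 0.959, so the levels of these 2 libraries carry an unusual scaling. Results from ST#15 that rest on these 2 libraries are therefore given with and without them.

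Keratins 8 and 18 pair to form the intermediate filaments of simple epithelia, including the ducts from which pancreatic carcinoma arises, and EPCAM is an adhesion molecule of epithelial cells. In bulk tumor RNA, a carcinoma gene falls when tumor cells make less of it and also when they give way to stroma or leukocytes, and fewer cells of a type cannot be told apart from less RNA per cell. The 10 genes work in different places in such a cell. CHMP4C is a subunit of ESCRT-III, which severs membranes and acts at the end of cell division, THSD4 binds fibrillin microfibrils of the extracellular matrix, ladinin 1 (Lad1) belongs to the anchorage of epithelia to the basement membrane, and podocalyxin (Podxl) is a sialomucin of the CD34 family. TMBIM1 is a membrane protein of the Bax inhibitor family, St6gal1 encodes the enzyme that adds α2,6-linked sialic acid to glycoproteins, GRAMD4 has been linked to cell death, PRMT2 methylates arginine residues, TXNL4A is a protein of the U5 spliceosomal particle, and Slc29a1 encodes ENT1, the equilibrative nucleoside transporter.

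The genes lie on different chromosomes for the most part. In GRCm38 with the GENCODE M21 annotation, Lad1 lies at chr1:135818598-135833342, Tmbim1 at chr1:74288247-74305622, Chmp4c at chr3:10366907-10428856, Podxl at chr6:31519488-31563981, Thsd4 at chr9:59966931-60522046, Prmt2 at chr10:76207222-76237865, Gramd4 at chr15:86057695-86137634, St6gal1 at chr16:23224740-23360350 and Slc29a1 at chr17:45585200-45599606. RefSeq promoter windows, 250 bases before to 50 after a start site on GRCm38.p6, were held for 7 of the 10 genes, with 19 windows in all. The windows of Thsd4 and Lad1, the genes with the largest fall among those with a window, and of Gramd4, 1 of the 2 genes with a match to CACGTG, are shown so that the promoters of genes that moved together can be compared. Capitals mark CACGTG, the E-box letters that read the same on both strands, and GGGCGG or its complement CCGCCC, the GC-box letters.

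Thsd4, chr9:60510986-60511285, minus strand: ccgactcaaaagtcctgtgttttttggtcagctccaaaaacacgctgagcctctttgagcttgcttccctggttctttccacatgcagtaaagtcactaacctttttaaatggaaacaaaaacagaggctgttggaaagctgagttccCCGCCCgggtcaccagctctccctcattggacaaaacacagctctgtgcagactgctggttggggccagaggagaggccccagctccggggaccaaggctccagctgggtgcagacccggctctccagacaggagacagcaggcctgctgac

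Lad1, chr1:135818348-135818647, plus strand: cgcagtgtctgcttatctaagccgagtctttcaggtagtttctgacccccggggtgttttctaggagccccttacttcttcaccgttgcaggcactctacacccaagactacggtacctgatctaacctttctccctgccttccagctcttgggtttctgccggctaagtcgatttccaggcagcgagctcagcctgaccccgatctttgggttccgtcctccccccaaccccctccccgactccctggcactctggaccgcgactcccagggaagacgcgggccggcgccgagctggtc

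Gramd4, chr15:86058477-86058776, plus strand: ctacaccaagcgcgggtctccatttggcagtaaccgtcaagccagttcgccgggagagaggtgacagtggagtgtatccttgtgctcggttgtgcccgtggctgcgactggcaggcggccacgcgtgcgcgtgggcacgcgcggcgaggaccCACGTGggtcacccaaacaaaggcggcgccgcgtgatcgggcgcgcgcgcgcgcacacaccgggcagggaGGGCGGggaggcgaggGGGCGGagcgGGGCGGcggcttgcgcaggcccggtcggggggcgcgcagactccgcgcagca

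CACGTG was present in a window of Gramd4 and of Slc29a1, 2 of 7 genes, against 7.15% of all 32851 windows. GGGCGG on either strand was present for 5 of 7 genes, against 35.7% of windows, and neither the D-box TTATGTAA (0.938% of windows) nor the cAMP response element TGACGTCA (1.79%) was present for any of the 7. Several windows of 1 gene raise its chance of a match, and the letters are a description of the sequence and not sites of binding. Of the 3 windows shown, Thsd4 and Gramd4 hold the GC-box letters and Lad1 holds none of the 4 motifs.

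In ST#23 all 10 genes fell along the same order of groups, with control and ADU-S100 tumors highest, anti-LTbR tumors lower and combination tumors lowest. This order of the 4 means held for 10 of 10 and for 26.3% of the 16909 genes tested. Every combination tumor lay below every control tumor for all 10 genes, as the choice of genes fixed, and for 6.04% of all genes tested. The genes differed in size of change, and Thsd4 and Chmp4c, with the largest falls, had the lowest control levels per kilobase of exon, 80.2 and 40.1.

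For Chmp4c, the ESCRT-III subunit, normalized counts ran from 342.3 through a median of 384.9 to 537.6 in control tumors, from 281.2 through 420.0 to 459.2 with ADU-S100, from 132.7 through 234.1 to 316.0 with anti-LTbR and from 97.2 through 107.7 to 197.3 in the combination. Anti-LTbR tumors did not reach the lowest control tumor, and 5 of the 8 combination tumors lay below every anti-LTbR tumor. The log2 difference between combination and control was -1.67 ± 0.15 (SE, n = 8 and 8), and the combination mean was 0.32 of the control mean.

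Thsd4, the microfibril binding protein, fell furthest. It ran from 693.6 through 1111 to 1392 in control, from 920.5 through 1072 to 1306 with ADU-S100, from 477.9 through 680.9 to 871.2 with anti-LTbR and from 201.9 through 336.4 to 511.6 in the combination. Its combination mean was 0.299 of the control mean, a log2 difference of -1.76 ± 0.17. It was the 1 gene of the 10 whose anti-LTbR tumors lay below all 8 ADU-S100 tumors, yet 1 low control tumor overlapped with the anti-LTbR group.

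Lad1, of the basement membrane anchorage, ran from 3680 through 4279 to 5358 in control, from 3215 through 4034 to 4335 with ADU-S100, from 2704 through 2896 to 3460 with anti-LTbR and from 1447 through 1983 to 2672 in the combination. The highest combination tumor lay below the lowest anti-LTbR tumor, and the log2 difference from control was -1.15 ± 0.12. Podxl ran from 2259 through 2659 to 2895 in control, from 1859 through 2755 to 3007 with ADU-S100, from 1556 through 1788 to 2204 with anti-LTbR and from 1098 through 1263 to 1667 in the combination. Its combination mean was 0.503 of the control mean, a log2 difference of -0.996 ± 0.0777, and 7 of 8 combination tumors lay below every anti-LTbR tumor.

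The other 6 genes fell less, and the SEs of their differences were smaller. Their log2 differences between combination and control were -0.78 ± 0.06 for Txnl4a, -0.73 ± 0.06 for Gramd4, -0.71 ± 0.06 for Tmbim1, -0.69 ± 0.06 for Slc29a1, -0.64 ± 0.06 for Prmt2 and -0.58 ± 0.05 for St6gal1. Txnl4a, the spliceosomal gene, ran from 287.7 through 305.3 to 331.0 in the combination and from 469.3 through 524.9 to 629.4 in control. Slc29a1, the nucleoside transporter and the most abundant of the 10 per kilobase, ran from 3162 through 3895 to 4126 in the combination and from 5560 through 5992 to 6365 in control. For neither gene did a tumor of 1 group reach the range of the other.

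**Figure D1:**
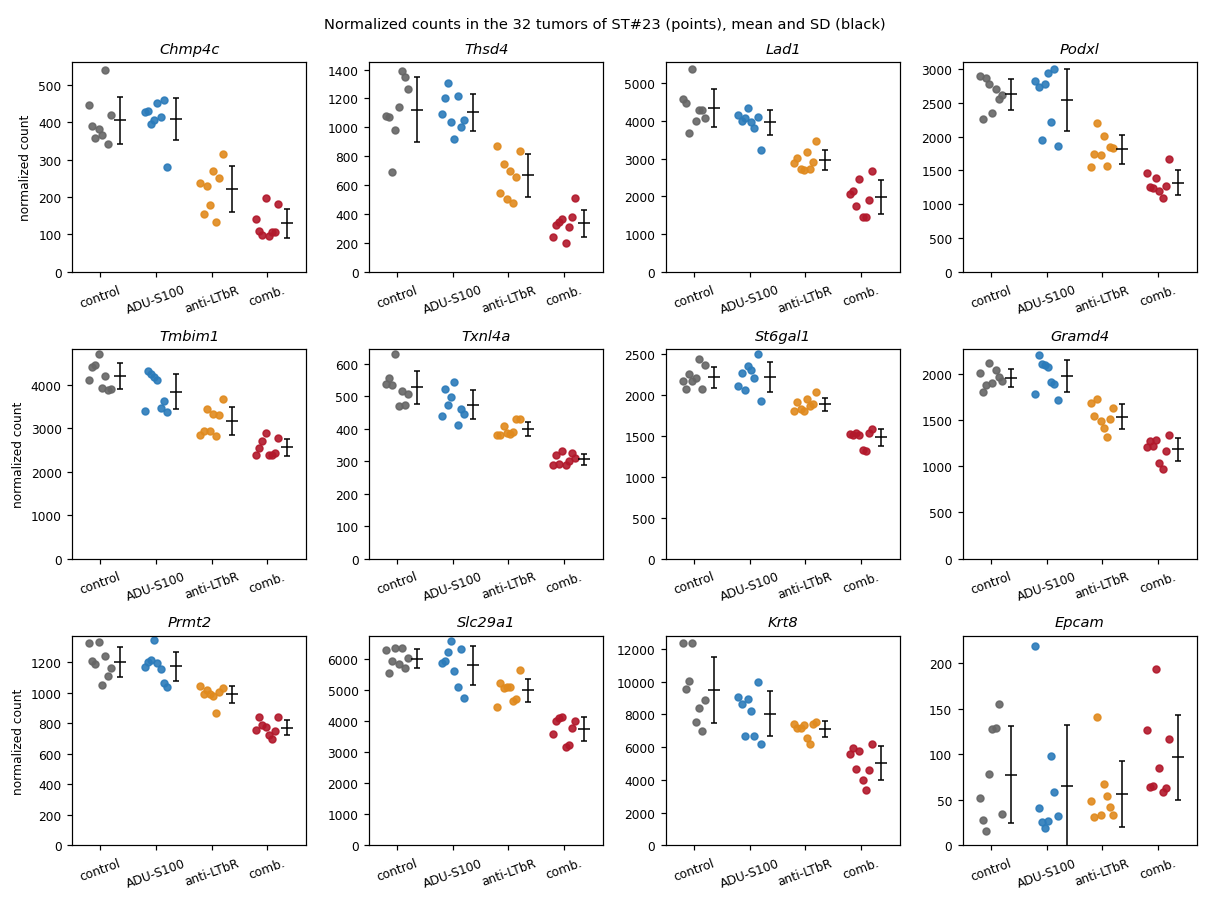
Normalized counts of the 10 genes, Krt8 and Epcam in each of the 32 tumors of ST#23 by treatment group, with the vertical axis from 0 and the mean and SD in black. Combination tumors lie below control tumors for the 10 genes and for Krt8, while Epcam overlaps between all groups.

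The antibody alone gave part of this fall. Log2 differences between anti-LTbR and control ran from -0.23 for St6gal1 to -0.91 for Chmp4c, and every anti-LTbR tumor lay below every control tumor for 8 of 10 genes, against 0.965% of all genes tested, with Thsd4 and Slc29a1 as the exceptions. Between the combination and the antibody alone the differences ran from -0.30 for Tmbim1 to -1.01 for Thsd4, and the groups did not overlap for 5 of 10 genes, against 1.71% of genes. ADU-S100 alone gave log2 differences from -0.15 for Txnl4a to 0.01 for Chmp4c. These comparisons share the control or combination tumors that chose the genes and are given without a test.

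The comparison of anti-LTbR with ADU-S100 tumors used none of the control or combination tumors and could be tested. By limma with Benjamini-Hochberg adjustment over all 16649 genes, 9 of the 10 genes were lower with the antibody at an adjusted p under 0.05, against 3.04% of genes called lower. Lad1 differed by -0.42 ± 0.06 on the log2 scale (adjusted p = 0.00311), Thsd4 by -0.75 ± 0.12 (adjusted p = 0.00545), Chmp4c by -0.92 ± 0.16 (adjusted p = 0.00611) and Gramd4 by -0.36 ± 0.06 (adjusted p = 0.00611). Podxl, Tmbim1, Txnl4a, St6gal1 and Prmt2 fell by limma with adjusted p-values between 0.0125 and 0.0293. Slc29a1 differed by -0.21 ± 0.07 and missed the threshold (adjusted p = 0.0619). The groups were fully apart for 1 of 10 genes, Thsd4, against 0.252% of genes.

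**Figure D2:**
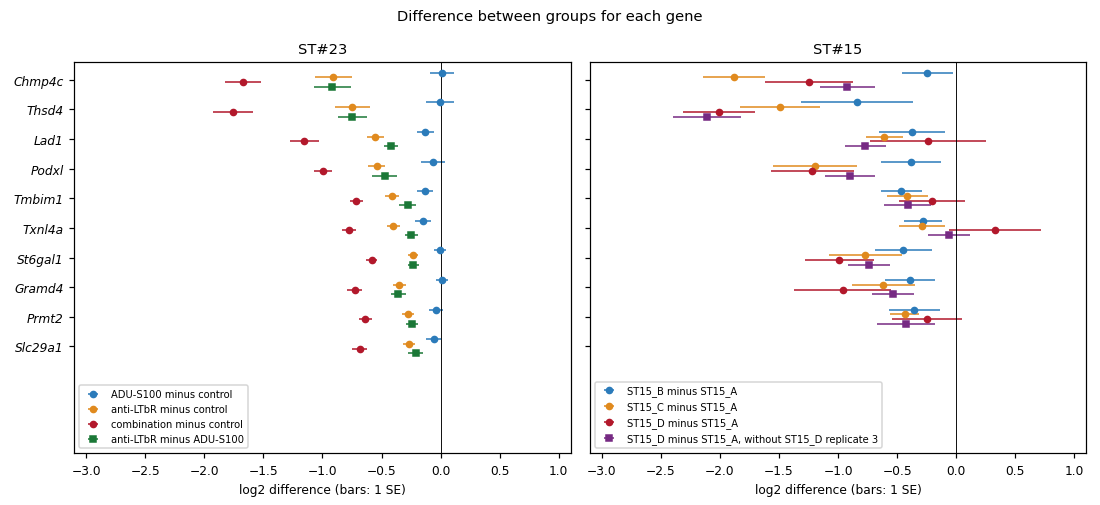
Log2 differences between groups for the 10 genes in ST#23 (left) and for 9 of them in ST#15 (right), with bars of 1 SE. In ST#23 the combination differences lie left of the antibody differences for each gene and those of ADU-S100 lie near 0, and in ST#15 the difference of ST15_D for Txnl4a moves from 0.33 to -0.06 without replicate 3 of ST15_D.

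In ST#15, whose tumors did not choose the genes, the direction was the same for most of them but few passed the test. Slc29a1 and Krt8 were not analysed in ST#15, which leaves 9 genes. By limma, ST15_D minus ST15_A called 1 of 9 genes lower, against 0.0927% of 15096 genes. That gene was Thsd4, at 615.6, 755.1, 980.9, 1128 and 1209 in ST15_A and at 150.3, 165.0, 209.4, 294.6 and 376.4 in ST15_D. The groups did not overlap, and the log2 difference was -2.01 ± 0.31 (n = 5 and 5, limma, adjusted p = 0.0254). The call was lost without any 1 of replicates 1, 2 and 4 of ST15_A or 2, 4 and 5 of ST15_D, with differences from -1.87 to -1.98 and limma adjusted p-values from 0.0569 to 0.0955.

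Replicate 3 of ST15_D, the library with fewest reads and the largest scaling of each read, was far from its group for several of the 9 genes and in both directions. Lad1 stood at 1701, 1955, 2462 and 2606 in 4 ST15_D tumors and at 13531 in replicate 3. Txnl4a stood at 496.5, 691.3, 744.2 and 981.6 there and at 2746 in replicate 3, while Gramd4 stood at 825.6 to 1394 and at 260.6. Without this library, 5 of 9 genes were called lower by limma, against 4.59% of 15404 genes, with log2 differences of -2.11 ± 0.29 for Thsd4 (adjusted p = 0.00948), -0.92 ± 0.23 for Chmp4c (adjusted p = 0.0365), -0.90 ± 0.21 for Podxl (adjusted p = 0.0294), -0.77 ± 0.17 for Lad1 (adjusted p = 0.025) and -0.74 ± 0.18 for St6gal1 (adjusted p = 0.0308). Gramd4, Prmt2, Tmbim1 and Txnl4a gave -0.54, -0.43, -0.41 and -0.06 and did not pass. Txnl4a, the first of the 10 by the p-value rank in ST#23, thus had no called fall in ST15_D either with this library (0.33 ± 0.39) or without it (-0.06 ± 0.18).

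ST15_C minus ST15_A, the antibody by the lettering, was negative for 9 of 9 genes and called 1, against 0.0399% of genes. Chmp4c stood at 438.0 to 612.7 in ST15_A and at 79.0 to 189.3 in ST15_C, a log2 difference of -1.88 ± 0.26 by limma (adjusted p = 0.0289). Without replicate 3 of ST15_C the limma calls were Chmp4c and Txnl4a, against 1.07% of genes, and the call of Chmp4c was lost without replicate 1, 2 or 4 of ST15_A or replicate 2 or 4 of ST15_C (adjusted p from 0.0567 to 0.101). ST15_B minus ST15_A was negative for 9 of 9 genes, from -0.25 to -0.84, with 0 genes called by limma among the 9 and 0% of 14964 genes called lower, where 1105 genes of all had an unadjusted p under 0.05 and DESeq2 called 241. Unlike the order of the groups in ST#23, the mean was lower in ST15_C than in ST15_D for 5 of 9 genes, Chmp4c, Lad1, Tmbim1, Txnl4a and Prmt2, and without both replicates 3 for 4 of 9, all of these but Lad1. This difference was not tested. Scaling moved the median of all genes in ST15_D minus ST15_A from -0.15 by library totals to 0.12 by the RLE size factors of edgeR, against -0.06 in the fit given here. With all 5 ST15_D libraries Lad1 stood at -0.24 in this fit and at 0.35 to 0.44 by edgeR with TMM or RLE and by DESeq2, so its sign turned by more than this shift. Its mean was 4451 in ST15_D and 3705 in ST15_A, while its median was 2462 and 4026. Without replicate 3 the ST15_D mean was 2181.

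**Figure D3:**
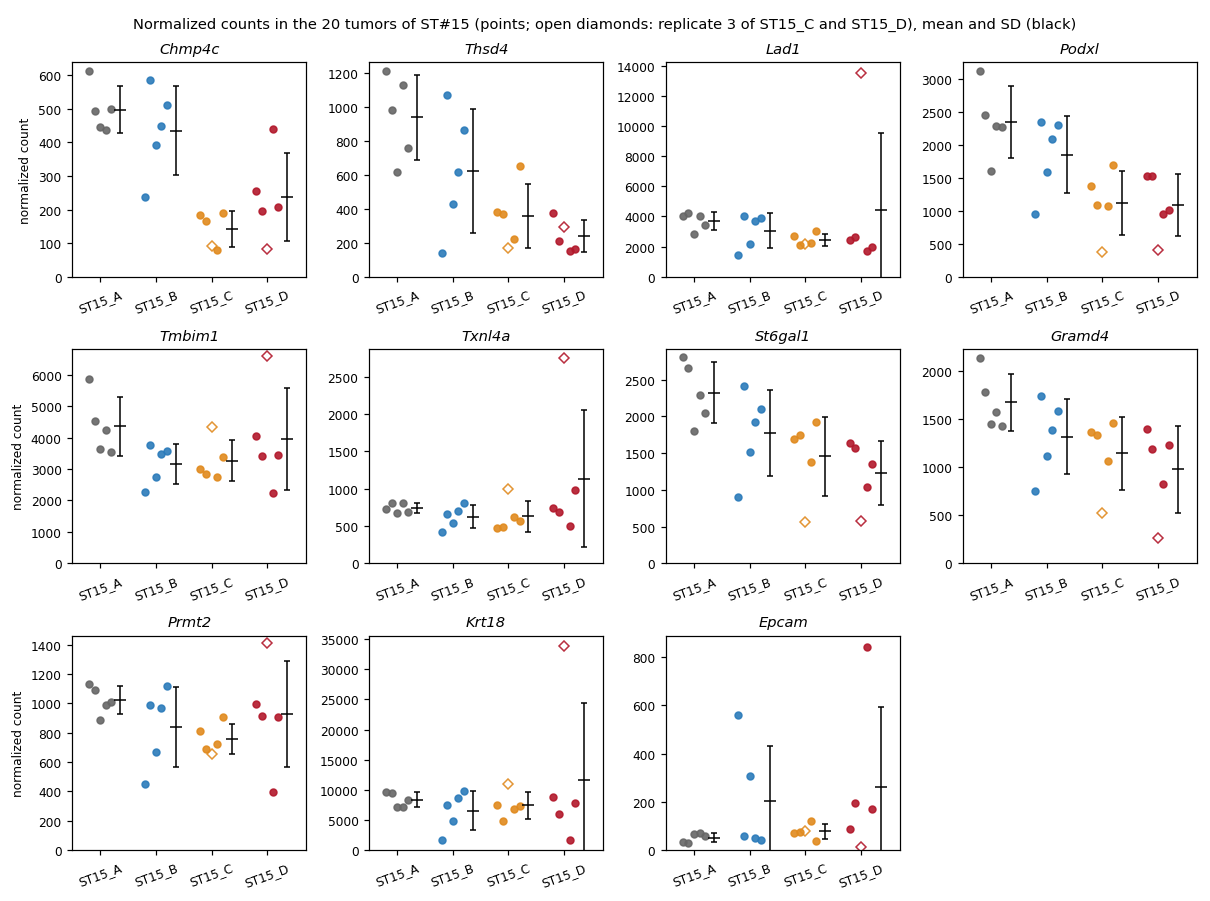
Normalized counts of 9 of the genes, Krt18 and Epcam in each of the 20 tumors of ST#15 by lettered group, with open diamonds for replicate 3 of ST15_C and ST15_D and the mean and SD in black. Replicate 3 of ST15_D lies above its group for Lad1, Txnl4a and Krt18 and below it for Gramd4, and Epcam is highest in 1 ST15_D and 1 ST15_B tumor.

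Epcam and Krt8 behaved differently from each other in these tumors, so they give different readings of epithelial content. Krt8 was abundant, at 4862 normalized counts per kilobase of exon in control tumors, and Epcam was scarce, at 35.3. Krt8 ran from 6998 through 9219 to 12368 in control, from 6222 through 8419 to 9997 with ADU-S100, from 6188 through 7269 to 7532 with anti-LTbR and from 3372 through 5123 to 6218 in the combination. Its combination mean was 0.528 of the control mean, within the range of the 10 genes, with no overlap with control. Epcam ran from 16.3 through 65.2 to 155.1 in control and from 58.9 through 75.2 to 193.6 in the combination. These ranges overlapped in part, with the lowest control tumors below every combination tumor. With group means removed, Epcam and Krt8 did not track each other over the 32 tumors (Pearson r = -0.02, permutation p = 0.906, Spearman rho 0.03, r = -0.11 without the 2 tumors farthest from the median Epcam). Krt8 and its partner Krt18 did (r = 0.95, rho 0.94, permutation p = 1e-05 for both, the smallest that 100000 permutations give, r = 0.95 without the 2 farthest).

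Of the 12 epithelial markers listed, 11 were tested in the combination against control and 4 were lower by limma (Krt18 -1.46, Krt7 -1.27, Krt8 -0.92 and Krt19 -0.67 on the log2 scale, adjusted p from 2.99e-05 to 0.00525), 0 were higher and 7 were not called, with a median of -0.27 beside -0.02 over all genes and 23.6% of genes called lower. The 7 included Cdh1, Cldn4 and Epcam. The summed level of all 12, most of it from Krt8, Krt18 and Krt19, ran from 16915 to 29470 in control and from 6960 to 15554 in the combination. Krt8, Krt18, Krt19 and Krt7, all keratins, thus fell, while Epcam stood at 0.56 and Cdh1, the epithelial cadherin, at -0.27 without passing the test. Between anti-LTbR and control 5 of 11 were lower by limma, against 1352 of 16691 genes, with a median of -0.72. From the antibody alone to the combination 3 of 12 were lower, against 2587 of 16932 genes, and 0 higher, with a median of 0.32. By these medians the list was lowest with the antibody alone, unlike the 10 genes. The 4 keratins had their lowest means in the combination.

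Tumor by tumor within the treatment groups, 7 of the 10 genes had a called slope on Krt8 and 0 on Epcam. In a limma fit with the 4 groups as terms, a slope on the mean of Epcam and Krt8, the index set for this question, called 0 of 10 genes, against 6.38% of 17647 genes called with a positive slope, and 3 of the 10 had an unadjusted permutation p under 0.05, where 4409 of all genes had an unadjusted limma p under 0.05. The slope on Epcam alone also called 0 of 10, against 5.9%, with 5 of 10 correlations above 0 and none with an unadjusted p under 0.05. The slope on the mean of the 12 epithelial markers called 0 of 10 as well, against 7.27%, with a median r of 0.18 over the 10 genes. The slope on Krt8 alone was positive for 10 of 10 genes and called 7, against 11% of genes. The slope on Krt18 alone called 5, against 10.8%. The genes called on Krt8 were Lad1 (slope 0.56 ± 0.10 log2 per log2, limma adjusted p = 0.000517), Podxl (0.53 ± 0.11, adjusted p = 0.00113), Prmt2 (0.28 ± 0.06, adjusted p = 0.00242), Slc29a1 (0.31 ± 0.08, adjusted p = 0.00612), Gramd4, Txnl4a and St6gal1.

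The correlations with Krt8 over the 32 group-centred values show which genes tracked it. Lad1 gave r = 0.71 (rho 0.70, permutation p = 3e-05 and 0.00014, r = 0.69 without the 2 tumors farthest from the median Krt8) and Podxl gave r = 0.68 (rho 0.65, permutation p = 1e-05, the smallest possible, and 0.00015, r = 0.68 without the 2). Prmt2 gave r = 0.67 (rho 0.61, permutation p = 0.00014 and 0.00064, r = 0.61 without the 2) and Chmp4c r = 0.46 (rho 0.50, permutation p = 0.00485 and 0.00262, r = 0.44 without the 2). The limma adjusted p of Chmp4c for this slope was 0.0507, and that of Tmbim1 was 0.103. Thsd4, the gene with the largest fall, stood apart with r = 0.02 (rho -0.08, permutation p = 0.92 and 0.681, r = 0.07 without the 2). In single groups its r with Krt8 ran from -0.52 to 0.50 and was above 0 in 2 of 4. With Epcam its pooled r was 0.32, the highest of the 10 genes (rho 0.30, permutation p = 0.0587 and 0.103). In single groups its r with Epcam ran from 0.10 to 0.71. These are 30 correlations over the 3 readings, 10 for each, and the p-values adjusted over all genes are those of the slopes. Slopes and correlations over the 32 tumors include the control and combination tumors that chose the genes, with the group means removed.

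**Figure D4:**
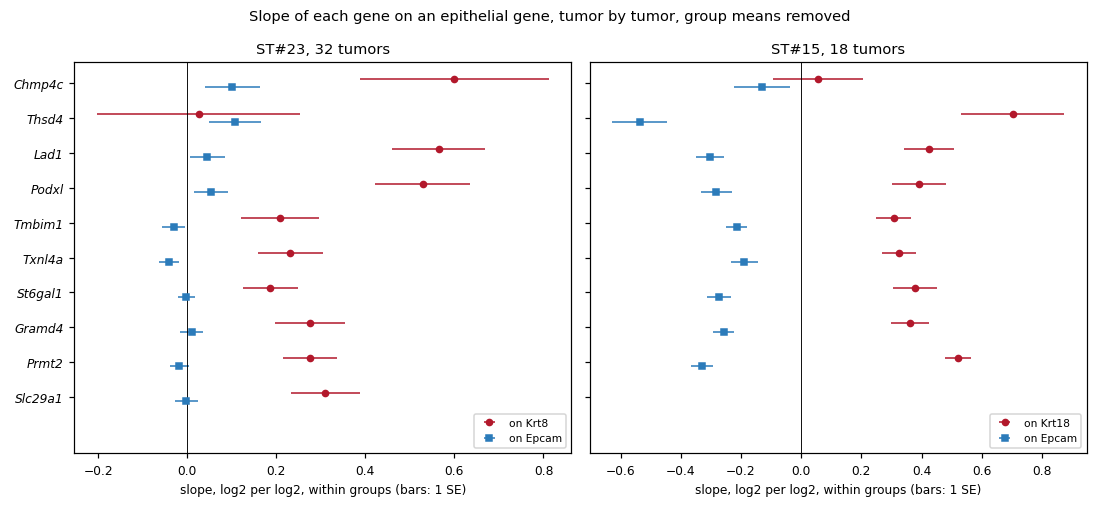
Slopes of each gene on an epithelial gene with group means removed, log2 per log2 with bars of 1 SE, on Krt8 and Epcam over 32 tumors of ST#23 (left) and on Krt18 and Epcam over 18 tumors of ST#15 (right). Slopes on Krt8 are positive for 10 genes, with Thsd4 near 0, slopes on Epcam lie near 0 in ST#23, and slopes on Epcam are negative for 9 genes in ST#15.

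Most correlations with Krt8 were above 0 in single groups as well. Over the 4 groups of 8 tumors, 36 of 40 correlations of a gene with Krt8 were above 0, with a median r of 0.55, against 25 of 40 with a median of 0.15 for Epcam, and with either gene 46.8% to 54.3% of all genes were above 0 in a group. In the ADU-S100 and anti-LTbR tumors, which did not choose the genes, 9 of 10 genes correlated positively with Krt8 in each group, at a median r of 0.54 and 0.38, and 5 and 2 of the 10 had an unadjusted exact permutation p under 0.05, against 16.8% and 3.25% of all 17647 genes. In control tumors, which together with the combination tumors chose the genes, 8 of 10 were positive at a median r of 0.55, and 2 of 10 had such an exact p, against 24.1% of genes. In combination tumors, the other group that chose the genes, 10 of 10 correlated positively with Krt8 (median r 0.80), with Epcam (median r 0.39) and with the index of both (median r 0.57), while with Epcam 5, 4 and 6 of 10 did in control, ADU-S100 and anti-LTbR tumors. In these combination tumors the exact permutation p was under 0.05 for 6, 1 and 4 of the 10, against 19.5%, 11.3% and 14.5% of genes. The median over the 10 genes of the pooled r with Krt8 was 0.55, beside 0.03 for all genes, and that with Epcam was 0.03, beside -0.01. Each library has 1 scaling factor, which enters both values of a tumor, which is why the median over all genes is given beside these values.

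**Figure D5:**
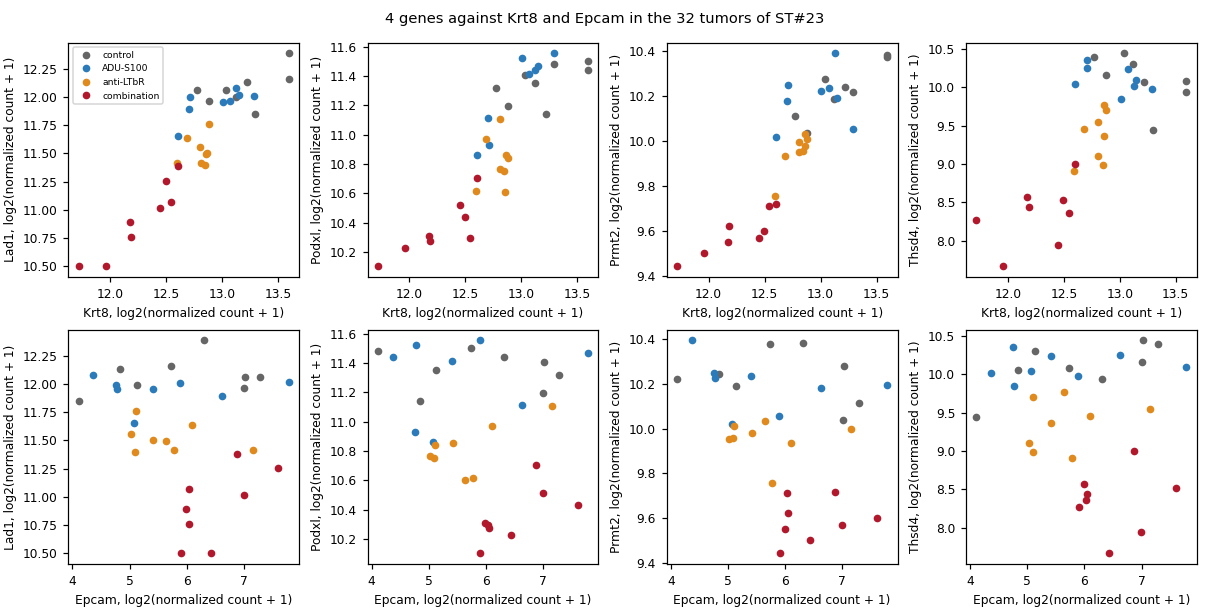
Lad1, Podxl, Prmt2 and Thsd4 against Krt8 (top) and Epcam (bottom) in the 32 tumors of ST#23, all as log2(normalized count + 1), with 1 point a tumor colored by group. Lad1, Podxl and Prmt2 rise with Krt8 within and between groups, and Thsd4 is lowest in combination tumors, with r = 0.02 to Krt8 over group-centred values. With Epcam the group-centred r of the 4 genes runs from -0.16 for Prmt2 to 0.32 for Thsd4.

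With Krt8 as a term in the fit, the difference between combination and control shrank for 10 of 10 genes but stayed below 0. Lad1 moved from -1.15 ± 0.12 to -0.56 ± 0.15, Prmt2 from -0.64 to -0.35 ± 0.06, Podxl from -0.996 to -0.65 ± 0.11 and Chmp4c from -1.67 to -1.21 ± 0.26. Thsd4 moved from -1.76 to -1.71 ± 0.33. With Epcam as the term, Lad1 stood at -1.21 ± 0.12 and Prmt2 at -0.63 ± 0.06. With the index of both as the term, Lad1 stood at -1.09 ± 0.10, Podxl at -0.97 ± 0.07, Prmt2 at -0.63 ± 0.06 and Txnl4a at -0.78 ± 0.06, all within 1 SE of the values without a term. These values use the tumors that chose the genes and are a description, and since Krt8 itself differs between the groups, they do not divide the fall into parts.

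In ST#15, where Epcam alone formed the index, the relation with Epcam was negative for most of the genes. Over all 20 tumors 5 of 9 genes had a negative slope by limma, against 11.3% of genes, and without replicate 3 of ST15_C and ST15_D 8 of 9 did, against 10.7%. Prmt2 gave a slope of -0.33 ± 0.04 (limma, adjusted p = 3.2e-05) and r = -0.94 over these 18 group-centred values (rho -0.95, permutation p = 2e-05 and 4e-05, r = -0.91 without the 2 tumors farthest from the median Epcam). Over the 9 genes r ran from -0.94 to -0.33, and from -0.91 to -0.51 without the 2 farthest, while over all 20 tumors it ran from -0.93 to 0.20 and was above 0 for 2 of 9. Chmp4c was the gene not called over the 18. The mean of the epithelial list gave a median r of -0.72 over the 18 tumors and -0.60 over all 20. A negative sign was not particular to epithelial markers. Over the 18 tumors the median r was -0.81 with the fibroblast list, -0.79 with the endothelial and -0.76 with the leukocyte list. It was -0.84 with adipocyte, -0.60 with keratinocyte and -0.32 with muscle markers. Epcam reached 844.4 in ST15_D replicate 4 and 560.0 in ST15_B replicate 1, against 27.6 to 69.1 in ST15_A.

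Krt18, read in place of Krt8 in ST#15, gave the opposite sign for most of them. Over the same 18 tumors its slope was positive and called by limma for 8 of 9 genes, against 12.1% of genes, with Prmt2 at 0.52 ± 0.04 (adjusted p = 2.08e-06) and Chmp4c at 0.06 ± 0.15 (adjusted p = 0.814). Over all 20 tumors 5 of 9 were called, against 14.9%, and r ran from -0.38 to 0.91, above 0 for 5 of 9. Thsd4, whose slope on Krt8 was not called in ST#23, had a called slope on Krt18 here (0.70 ± 0.17, limma adjusted p = 0.00547). Epcam and Krt18 were themselves opposed over the 18 tumors (r = -0.89, rho -0.91, permutation p = 0.00028 and 0.00023, r = -0.80 without the 2 farthest) and over all 20 (r = -0.92, rho -0.85, permutation p = 0.00023 for both, r = -0.81 without the 2 farthest). The tumor with most Epcam, ST15_D replicate 4, had the least Krt18 of ST#15 at 1597.

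The 10 genes also moved with each other within groups. All 45 of their pairs correlated positively over the 32 group-centred values, with r from 0.01 to 0.74 and a median of 0.51, beside 49.7% of all pairs of the genes tested and a median of -0.00225. In 18 ST#15 tumors 35 of 36 pairs did, at a median of 0.83, beside 49.7% and -0.00355 over all pairs. Over all 20 ST#15 tumors 23 of 36 pairs did, with r from -0.60 to 0.97 and a median of 0.45, beside 51.5% and 0.02. The genes most like their mean were Esyt2 (r = 0.83), Rarg (0.83) and Mmp28 (0.82) over 32 tumors. Single genes were most like Syt8 for Podxl (0.91), Ugdh for Lad1 (0.87), Esyt2 for Slc29a1 (0.87), Nars for Prmt2 (0.83), Etl4 for Thsd4 (0.82), Itgb4 for Gramd4 (0.81), Dbndd2 for Txnl4a (0.81), Slc44a1 for St6gal1 (0.80), Sdc1 for Tmbim1 (0.78) and Capn2 for Chmp4c (0.74).

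Markers of other cell types were higher in the combination, and fewer of them were higher with the antibody alone. Of 8 fibroblast markers 8 were higher in the combination than in control by limma, of 8 endothelial markers 8, and of 9 leukocyte markers 7, against 19.6% of genes called higher. Their summed normalized counts ran from 93501 to 145954 in control and 163323 to 595599 in the combination for fibroblasts, from 1470 to 2150 and 2777 to 4012 for endothelium, and from 7775 to 11141 and 10879 to 15224 for leukocytes, with no list gene at a group mean under 10. The fibroblast and endothelial sums did not overlap between these groups. Between anti-LTbR and control, where the 10 genes were also lower, 0 of 8 fibroblast markers were called by limma (median -0.01 on the log2 scale), and 4 of 8 endothelial and 3 of 9 leukocyte markers were higher, against 7.21% of genes called higher. Against the antibody alone, the combination had 8 of 8 fibroblast, 8 of 8 endothelial and 1 of 9 leukocyte markers higher by limma. There 1917 of 16932 genes were called higher. Within groups the 10 genes had a median r of -0.49 with the endothelial list and -0.36 with the fibroblast list, beside -0.04 and -0.05 over all genes. Skin keratinocyte, skeletal muscle and adipocyte markers had 0 of 6, 0 of 5 and 0 of 5 called, with sums in single tumors from 1133 to 54072 for keratinocytes. The part of these cells in the fall of the 10 genes was not tested.

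The 2 clock genes set for comparison moved in opposite directions. Arntl, the gene at rank 1, ran from 784.9 through 875.5 to 988.0 in control and from 282.9 through 328.0 to 403.9 in the combination, and Dbp, a target of the clock, ran from 156.7 through 251.0 to 309.0 and from 671.2 through 849.5 to 1218. Of 15 clock genes 9 were higher and 3 lower in the combination by limma, against 19.6% and 23.6% of all genes. Within groups the median r of the 10 genes was 0.54 with Arntl and -0.29 with Dbp, beside 0.03 and -0.01 over all genes. In ST#15 the median r of the 9 genes was 0.52 with Arntl and 0.36 with Dbp over 18 tumors, so the sign with Dbp was opposite, beside 0.01 and -0.03 over all genes. Over all 20 tumors the medians were 0.25 and 0.06, beside 0.22 and -0.27 over all genes.

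The relatives and partners of the genes were read against 23.6% of all genes called lower and 19.6% called higher in the combination. Of 15 tested genes of ESCRT-III and its partners beside Chmp4c, 7 were lower in the combination by limma, 0 were higher and 8 were not called, with a median of -0.15 on the log2 scale. The largest of these changes, Chmp6 at -0.35 and Chmp5 at -0.31, were small beside the -1.67 of Chmp4c, and Chmp4b, its close relative, stood at -0.07. Of 10 relatives of Thsd4 6 were higher and 3 lower. Fbn1, which encodes the fibrillin of microfibrils, rose by 0.66 (limma, adjusted p = 0.000368), while Adamtsl1 fell by 0.78 (adjusted p = 0.000176).

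Of 11 genes of hemidesmosomes, their laminin and basal keratins, related to Lad1, 5 were lower and 6 were not called. Itga6 fell by 0.93 and Itgb4 by 0.70 on the log2 scale (limma, adjusted p = 0.000205 and 5.99e-05), and these encode the integrin of hemidesmosomes. Krt5 and Krt14, keratins of basal epithelium, stood at -0.07 and 0.08. Of 7 relatives and partners of Podxl 4 were lower and 2 higher. Ezr, the ezrin that ties podocalyxin to actin, fell by 0.68 (adjusted p = 2.82e-05), and Cd34, its family member on vessels and stroma, rose by 1.37 (adjusted p = 0.000217).

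Of 8 other arginine methyltransferase genes and partners 6 were lower and 0 higher, with a median of -0.26, and Prmt3 and Prmt5 fell by 0.38 and 0.33 (limma, adjusted p = 0.000573 and 0.000246). Of 12 genes around St6gal1, which are sialyltransferases, sialidases, Cmas and Slc35a1 of the CMP-sialic acid supply and the protease gene Bace1, 2 were lower and 2 higher. St3gal4, which adds α2,3-linked sialic acid, fell by 0.75 (adjusted p = 8.13e-05) and the sialidase gene Neu1 rose by 0.54. Of 11 spliceosomal partners of Txnl4a 3 were lower, none by more than 0.28, and 8 were not called. Of 9 nucleoside transport and salvage genes 3 were higher and 0 lower, among them Slc29a3 at 0.44, the transporter of lysosomes, and Ada at 0.57. Of 4 Tmbim1 relatives Grina rose by 0.57 and Ghitm fell by 0.55, and of 5 Gramd4 relatives 1 was higher.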

How the data were processed

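RNA of single KPC tumors was sequenced as poly(A), strand-marked, paired-end libraries. The values the authors deposited are a signal: estimated reads of each gene, scaled by a factor for the library. The submitters' notes name cutadapt 1.9, HISAT2, StringTie, STAR, Partek, DESeq2, edgeR and the build mm39, and the deposited table of ST#23 carries the name of Partek. In the deposited table of 52 libraries the signal is a whole multiple of the worth of 1 read (100% of values up to 2000 reads within 0.02), and the recovered reads served for edgeR 4.0.16 and DESeq2 1.42.0. A deposited table of the authors' own gene set enrichment was not used.

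Groups were compared by limma 3.58.1 (trend, R 4.3.3) on log2(signal + 1) with a pseudocount of 1, each comparison on its own libraries, after filterByExpr at a count minimum of 10. P-values were adjusted over all genes tested by the Benjamini-Hochberg method, and a call is an adjusted p under 0.05. Slopes were fitted with the groups as terms. Correlations used group-centred values, with 100000 permutations within groups for pooled values and exact permutation within a group of 8, two-sided. The design had set an index of Epcam and Krt8 for both experiments, and in ST#15 it rests on Epcam alone. Methods were tested on simulated data. Groups follow the labels, which name no batch; the study describes the ST#23 tumors both as a single experiment and as experiments combined, so batches within groups could not be examined.

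The 10 genes and the gene lists were chosen with earlier results of these data known. Named genes are the 10, Epcam, Krt8, Arntl, Dbp, up to 4 relatives a gene by smallest adjusted p in the combination against control, and the 3 genes most alike; Krt18, Chmp4b, Krt5, Krt14, the genes just outside the choice and the epithelial markers named were added after their values were seen. Fold changes are on the log2(value + 1) scale and understate those of low genes. Per-sample columns left unused number 0.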

Additional observations from a re-analysis of the deposited data

Results flagged for a closer look

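Of 96 groups of tumors examined for the 10 genes, Epcam, Krt8 and Krt18, 9 held a tumor far from the rest of its group by Dixon's criterion at 95%, where chance gives about 1 group in 20. In ST#15, replicate 3 of ST15_D was far above its group for Krt18 (33842), Lad1 (13531) and Txnl4a (2746), replicate 3 of ST15_C was far above its group for Txnl4a (994.7), and replicate 4 of ST15_D was far above for Epcam (844.4). In ST#23 the tumors apart were replicate 8 of ADU-S100 for Chmp4c (281.2, low), replicate 6 of anti-LTbR for Prmt2 (865.8, low), replicate 1 of ADU-S100 for Epcam (219.4, high) and replicate 3 of anti-LTbR for Epcam (141.2, high). All values are normalized counts.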

How the results depend on the processing

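In the combination against control, the log2 difference of each of the 10 genes moved by less than the SD of control tumors in 96 of 96 alternatives, and with the added demand of a 2-fold change 1034 genes of all passed in place of 7305. In anti-LTbR against ADU-S100, 9 genes of the 10 were called lower under every alternative of scaling, test, filter, pseudocount and joint fit, but 0 with the 2-fold demand, where 100 genes of all passed. Genes called there were 1069 and became 1636 by DESeq2, 710 with no filter on low values and 475 in a joint fit of 4 groups. The replicate numbers of the labels did not pair the tumors, since same-numbered tumors deviated together in some pairs and oppositely in others (r from -0.55 to 0.46 in anti-LTbR against ADU-S100, where 1 of 16 tumors correlated best with its own number). With these numbers as a replicate block, 445 genes were called in that comparison and 6 of the 10 were lower, with Podxl, Tmbim1 and Txnl4a lost, and the block left 41 genes and 0 of the 9 in ST15_D against ST15_A and 4 genes and 0 of the 9 in ST15_C against ST15_A. It left 1204 genes with a slope in ST#23 and a slope of 0.031 for Tmbim1.

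ST15_D against ST15_A called 159 genes, and 48 by edgeR with library totals, 1798 by DESeq2, 54 with at least 10 in every library, 40 in a joint fit of 4 groups and 1782 in a joint fit without replicate 3 of ST15_C and ST15_D, an alternative chosen after seeing the data. The 9 genes gave 4 calls by DESeq2, 0 in the joint fit and 3 in the joint fit without those libraries, against 1. Leaving out 1 library gave 1 to 1405 genes and 0 to 5 of the 9. Lad1 turned to 0.35, 0.43 and 0.44 by edgeR with TMM, edgeR with RLE and DESeq2, Txnl4a to -0.062 in the joint fit without both libraries, and without 1 library Txnl4a ran from -0.062 to 0.55 and Prmt2 from -0.43 to 0.029. ST15_C against ST15_A called 42 genes, and 20, 21 and 18 by edgeR with TMM, RLE and library totals, 838 by DESeq2, 15 with at least 10 in every library and 23 in the joint fit, with 0 of the 9 by library totals and 5 by DESeq2, and 0 to 351 genes and 0 to 2 of the 9 without 1 library. ST15_B against ST15_A called 0 genes, 241 by DESeq2 and 0 to 1 without 1 library. The cause of these shifts was not tested.

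The slopes in ST#23 turned with the epithelial gene. The index and the mean of the epithelial list called 0 of the 10, Krt8 alone 7 and Krt18 alone, chosen after seeing the data, 5, against 10.8% of genes. Tmbim1 was 0.21 on Krt8 and 0.10 on Krt18, Txnl4a 0.23 and 0.14, while on Epcam St6gal1 was -0.0018, Prmt2 -0.018 and Slc29a1 -0.0022. Without the 2 tumors farthest from the median, r turned to -0.0066 for Prmt2 with the index and to 0.087 for St6gal1 with Epcam, and by rank correlation 1 gene passed an unadjusted p of 0.05 with Epcam. In ST#15, 4893 genes had a slope, 1615 with the mean of the epithelial list, and 2697 to 6664 without 1 library. Genes of the 9 with a negative slope were 5, and 8 without both replicates 3, 0 on Krt18 and 0 on Krt18 without both, where 5 and 8 were positive. On Krt18 the slopes of Chmp4c (-0.23), Thsd4 (0.43), Lad1 (0.62), Tmbim1 (0.35), Txnl4a (0.51), Gramd4 (-0.15) and Prmt2 (0.42) turned, and without both libraries those of Thsd4 (0.70), Lad1 (0.42), Podxl (0.39), Tmbim1 (0.31), Txnl4a (0.32), St6gal1 (0.38) and Prmt2 (0.52). On Epcam Chmp4c turned to -0.13 and Gramd4 to -0.26 without both libraries, and Gramd4 to -0.11 with the mean of the list. Without 1 library Chmp4c ran from -0.14 to 0.18, Podxl from -0.29 to 0.069, St6gal1 from -0.28 to 0.039 and Gramd4 from -0.27 to 0.14. Krt8 alone was not run in ST#15. Counting error weighs most on Epcam, whose lowest control tumor held 16.3 normalized counts.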
